A study of Mus musculus with 16 samples.

Results

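Cortical brain tissue of P301S+ TREM2-/- mice was compared with that of TREM2+/+ mice, 4 mice of each, which are 8 of the 16 libraries of the series. P301S+ TREM2-/- mice carried the P301S tau transgene and no intact Trem2 allele and are called knockouts here. TREM2+/+ mice had both Trem2 alleles, lacked the transgene and are called controls. Both groups were 8 to 9 months of age, were labelled with the strain C57BL/6; C3, and held 2 females and 2 males each. The sources used here do not give the promoter of the tau transgene, the deleted part of Trem2 or the litters. The groups differ in the transgene and in Trem2 at once, so within this comparison the effects of tau and of Trem2 loss cannot be told apart. The 4 P301S+ TREM2+/+ libraries, tau mice that keep Trem2, are set beside the comparison where a difference from them could be tested.

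The genes described are the 11985 with a mean of at least 1 RPKM over the 8 libraries, of 24060 listed. RPKM are reads per kilobase of the gene, scaled to 1e+06 reads of the library (below, M stands for 1e+06 reads), and a further 12071 genes lay below that level. Just inside it were the phosphatase gene Cdc14a, at 1.02 RPKM in knockouts and 0.983 in controls, and Nanos3, at 0.698 and 1.3 RPKM. Just outside it were Zfp36, at 1.34 RPKM in knockouts and 0.659 in controls, and the pseudogene Smarca5-ps, at 1.05 and 0.947 RPKM. Libraries were made with a 3' mRNA kit, which reads a short stretch near the poly(A) tail, so each gene was compared between mice, and genes were not compared with each other in level.

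TREM2 is a receptor on microglia, the macrophages that reside in brain tissue. It binds lipids and lipoproteins, signals through the adapter TYROBP, and is needed for microglia to shift from the homeostatic state, with genes such as P2ry12 and Tmem119, to the disease-associated state, with genes such as Cst7, Apoe and Lpl. Tau stabilises axonal microtubules, and the P301S mutation of human tau causes an inherited form of frontotemporal dementia. Mice with this transgene develop tau aggregates, gliosis and loss of neurons with age.

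The sequences immediately before the annotated starts of 4 genes are shown because the results turn on these genes. Trem2 is the targeted gene, Prnp is the gene with the smallest p-value in the comparison, Oard1 is the neighbour of Trem2 with the smallest p-value, and Mal stands for the myelin genes. Each is the 250 bases before the RefSeq start in GRCm38, 5′ to 3′ on the strand of the gene. Capitals mark the GC box GGGCGG on either strand, which 32.9% of the 27025 genes with such a window hold.
Trem2, chr17:48346151-48346400, plus strand: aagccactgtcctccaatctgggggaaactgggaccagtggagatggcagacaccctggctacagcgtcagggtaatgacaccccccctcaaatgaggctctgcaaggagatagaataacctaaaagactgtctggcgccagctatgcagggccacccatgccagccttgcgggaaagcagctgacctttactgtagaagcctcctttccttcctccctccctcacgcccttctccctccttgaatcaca
Prnp, chr2:131909678-131909927, plus strand: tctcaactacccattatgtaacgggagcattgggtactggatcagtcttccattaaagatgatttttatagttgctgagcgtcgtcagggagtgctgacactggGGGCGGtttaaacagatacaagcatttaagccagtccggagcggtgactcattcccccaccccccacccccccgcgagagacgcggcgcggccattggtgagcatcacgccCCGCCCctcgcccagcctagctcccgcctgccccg
Oard1, chr17:48409750-48409999, plus strand: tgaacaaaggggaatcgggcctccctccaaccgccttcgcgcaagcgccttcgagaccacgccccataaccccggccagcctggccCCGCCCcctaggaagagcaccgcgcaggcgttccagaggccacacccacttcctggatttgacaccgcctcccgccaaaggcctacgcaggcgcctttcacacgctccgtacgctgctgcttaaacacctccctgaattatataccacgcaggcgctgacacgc
Mal, chr2:127656696-127656945, minus strand: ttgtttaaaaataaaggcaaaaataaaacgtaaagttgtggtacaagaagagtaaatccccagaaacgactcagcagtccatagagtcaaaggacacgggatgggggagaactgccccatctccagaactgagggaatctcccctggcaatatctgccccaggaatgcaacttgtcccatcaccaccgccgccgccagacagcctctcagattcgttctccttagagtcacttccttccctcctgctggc
The Prnp window holds 2 GC boxes, the Oard1 window 1 and the other windows 0. G and C make up 56% of the Trem2 window, 58.8% of the Prnp window, 64% of the Oard1 window and 50% of the Mal window, against a median of 52% over all windows.

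Depth was 2.55 to 8.98 M reads in knockouts and 5.23 to 14.47 M in controls, and the difference did not exceed the spread between mice (two-sided exact permutation p = 0.457). Control replicate 3, a female, stood apart from every other library. Of the genes tested, 66.8% had their highest or lowest level of all 16 libraries there, against 2.52% to 17.2% in each of the other 15. Small nucleolar RNA genes gave 749 reads per M in it and 19.6 to 65.6 in the others, and the ribosomal RNA precursor Rn45s took 4.45% of its reads against 1.14% to 2.76%. The differences of knockouts from controls below are therefore without this library, followed in brackets by the value of the fit with all 16 libraries, marked "all". P-values of single genes, and values from other comparisons, are without it unless the fit is named. The median log2 difference over all genes was 0.08 with it and 0.01 without it. All 15 markers of cortical excitatory neurons were tested. These neurons were represented in both groups: the kinase gene Camk2a, 1 of the markers, was at 192 to 306 RPKM in knockouts and 300 to 1241 in controls. So were striatal neurons: Ppp1r1b, the striatal phosphatase inhibitor DARPP-32, was at 144 to 560 RPKM in knockouts and 88.4 to 266 in controls.

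**Figure D1:**
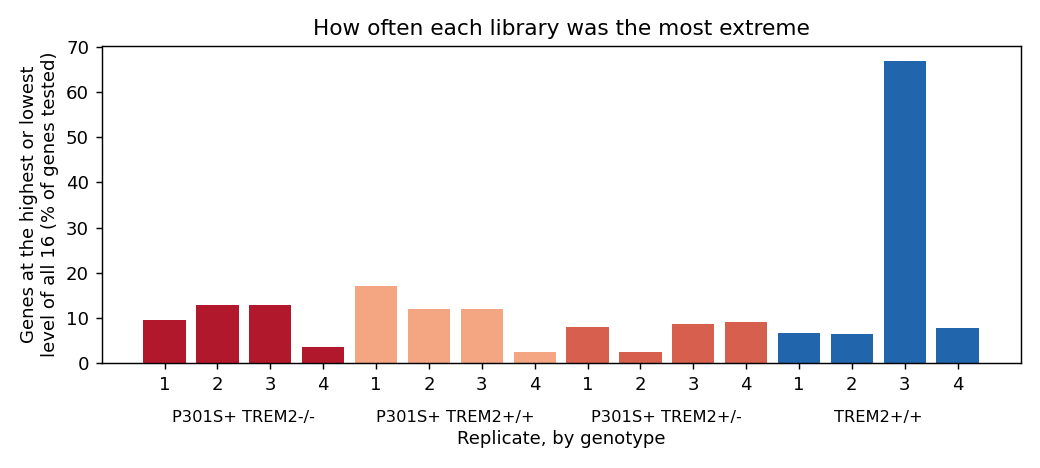
Share of the 11985 tested genes for which each library was the highest or the lowest of all 16 (vertical axis, percent), by genotype and replicate. Control replicate 3 is at 66.8%, and no other library exceeds 17.2%.

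Trem2 (chromosome 17, 48346401 to 48354147, plus strand, GRCm38) was low in the knockouts. Its level was 1.44, 1.71, 1.46 and 3.75 RPKM in the 4 knockouts, from 5 to 29 reads each, against 10, 12.1, 20.2 and 7.35 RPKM in control replicates 1 to 4. The groups did not overlap, knockout replicate 4 stood highest among the knockouts, and control replicate 3 highest among the controls. The log2 difference was -2.09 (SE 0.43, limma adjusted p = 0.447) with all libraries and -1.80 (SE 0.43, adjusted p = 0.673) without control replicate 3. By the exact permutation test of this single gene, p = 0.0286 in both cases, the smallest p that either design allows. Against tau mice that keep Trem2, at 27 ± 8.69 RPKM (SD, n = 4), the log2 difference of the knockouts was -3.17 and passed with and without control replicate 3 (limma adjusted p = 0.0398 and 0.00452). Since the deleted part is not known, reads left in the knockouts may come from 3' sequence outside it.

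Prnp was the only gene that passed the test against controls, and it did so only without control replicate 3. With all libraries 0 of 11985 genes (0%) had a limma adjusted p under 0.05, while 1172 (9.78%) had an unadjusted p under 0.05, 4.81% higher and 4.96% lower in knockouts. Without control replicate 3, 1 gene (0.00834%) was called and 586 (4.89%) had an unadjusted p under 0.05, of which 262 (2.19%) were higher and 324 (2.7%) lower in knockouts. The 4 knockouts lay wholly above the 3 remaining controls for 358 genes (2.99%) and wholly below them for 2.51%; with all 4 controls the shares were 2.22% and 1.55%. Of all genes, 52.6% had a positive difference without control replicate 3 and 57.9% with it. These shares over all genes are the background for each count below. The limma p-values set each difference against a spread estimated over the mice of all 4 genotypes, for which no litter or batch was given.

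Prnp encodes the prion protein, a membrane-anchored glycoprotein of neurons and glia (chromosome 2, 131909928 to 131938429, plus strand). It was at 859, 782, 991 and 998 RPKM in knockouts, against 415, 350, 174 and 326 RPKM in control replicates 1 to 4. Every knockout was above every control, and the lowest control was replicate 3. The log2 difference was 1.32 (SE 0.15, limma adjusted p = 0.00517) without that library, which is 2.5-fold on the RPKM + 1 scale, and 1.58 (SE 0.24, adjusted p = 0.105) with it. The call was lost when control replicate 4 was left out as well (1.24, adjusted p = 0.0707). In P301S+ TREM2+/+ mice Prnp was at 807 to 962 RPKM, and knockouts differed from these by 0.06 (SE 0.14, adjusted p = 0.816). Tau transgenes are often carried in a vector made from the prion gene, and whether reads of the transgene were counted at Prnp was not tested.

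Mapt, the mouse tau gene (chromosome 11, 104231390 to 104332090), did not differ beyond the spread between mice. It was at 107, 97.1, 92.7 and 111 RPKM in knockouts, against 102, 129, 188 and 99.4 RPKM in control replicates 1 to 4. The groups overlapped, and the log2 difference was -0.13 (SE 0.12) without control replicate 3 and -0.30 (SE 0.17) with it (exact permutation p = 0.486 and 0.257).

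**Figure D2:**
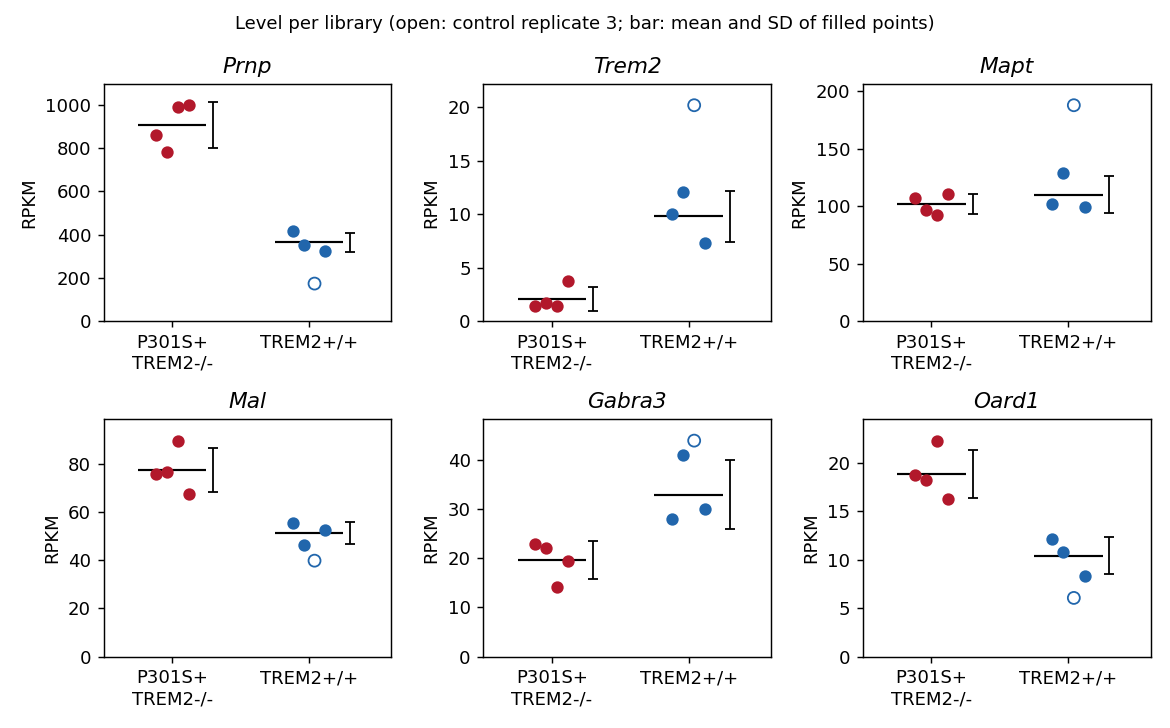
RPKM of 6 genes in each library, knockouts on the left and controls on the right; the open circle is control replicate 3, and the bar and error bar are the mean and SD of the filled points. Prnp, Mal and Oard1 are higher, and Trem2 and Gabra3 lower, in all 4 knockouts than in the controls, and Mapt overlaps.

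None of the genes with the next smallest p-values passed the test in either fit. Gabra3, a subunit of the GABA-A receptor for inhibitory transmission, was at 22.8, 22, 14.2 and 19.4 RPKM in knockouts, against 27.9, 40.9, 43.9 and 30 RPKM in control replicates 1 to 4. The groups did not overlap with or without control replicate 3, and the log2 difference was -0.78 (SE 0.15, all -0.83, limma adjusted p = 0.31 without that library). Tau mice that keep Trem2 were at 20.6 to 26.8 RPKM, overlapping the knockouts.

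Rps18, a protein of the small ribosomal subunit, was at 110, 85.2, 127 and 113 RPKM in knockouts, against 52.3, 37.4, 2.19 and 44.3 RPKM in control replicates 1 to 4. The low value of control replicate 3 rests on 6 reads. Without it the log2 difference was 1.26 (SE 0.22, all 2.22, limma adjusted p = 0.242), and in a fit of the knockout and control libraries alone Rps18 passed (1.32, adjusted p = 0.0201). The knockouts also lay above all P301S+ TREM2+/+ libraries, at 47.5 to 57.5 RPKM, by 1.01 (adjusted p = 0.0714). Ribosomal protein genes have many near-identical pseudogenes, so the level of Rps18 is uncertain.

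Il33, an alarmin cytokine made by oligodendrocytes and astrocytes in the brain, was at 35.5, 32.5, 48.9 and 30.8 RPKM in knockouts, against 20.2, 20.2, 12.9 and 25 RPKM in control replicates 1 to 4. All knockouts were above all controls, by 0.72 without control replicate 3 (SE 0.2, all 0.89, limma adjusted p = 0.729). Cryab, a small heat shock protein abundant in oligodendrocytes, was at 229, 172, 254 and 244 RPKM in knockouts, against 167, 144, 20 and 128 RPKM in control replicates 1 to 4 (0.63, all 1.31, adjusted p = 0.673). Also without overlap, with or without control replicate 3, were Wipf1, which regulates the actin cytoskeleton (0.50, all 0.71), and the muscle-type enolase Eno3 (0.73, all 0.86). The same held for the calcium-binding protein gene Chp1 (0.70, all 0.78) and Rbm15, a part of the RNA methylation complex (0.57, all 0.71). The ubiquitin ligase gene Zfp598, which acts on stalled ribosomes, differed by 0.53 (all 1.02), likewise with no overlap. Ttyh2 differed by 0.72 (all 1.03) with overlap.

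Among the lower genes, Slc30a4, a zinc transporter, was at 14.1, 26.2, 11.6 and 10.1 RPKM in knockouts, against 37.5, 31.5, 2.86 and 46 RPKM in control replicates 1 to 4. Only without control replicate 3 did all controls lie above the knockouts. The difference was then -1.34 on the log2 scale (SE 0.34, limma adjusted p = 0.673), and it was -0.49 with that library. Rhov (-0.88, all -1.11), the phosphatase-like Hdhd3 (-0.82, all -1.01) and the long non-coding RNA gene Gm16894 (-0.82, all -1.20) were lower in all 4 knockouts than in all 4 controls. So were the receptor gene Epha10 (-0.58, all -0.92), the Polycomb gene Pcgf3 (-0.52, all -0.73) and Adck2 (-0.43, all -0.58). Trim23 differed by -0.48 (all -0.56) with overlap. The small nucleolar RNA gene Snord91a had 0 reads in every knockout, against 3, 1, 0 and 2 reads in control replicates 1 to 4, so no fold is given. Snord49a was above 0 in 1 knockout, at 1.8 RPKM, and at 6.53, 5.57, 15.4 and 2.72 RPKM in control replicates 1 to 4. Both are short RNAs without a stable poly(A) tail, and small nucleolar RNA reads were highest in control replicate 3.

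Genes of myelin and mature oligodendrocytes, the cells that wrap axons, had higher values in the knockouts as a group, and none passed by itself. Without control replicate 3 all 16 had a positive difference, from 0.30 to 0.76 with a median of 0.59, against 0.01 over all genes. Of the 16, 14 were higher at an unadjusted p under 0.05 and 10 had no overlap (lowest limma adjusted p = 0.31). With control replicate 3 the median was 0.48, 14 were positive and 9 were higher at an unadjusted p under 0.05. The reads of the list summed to 4594, 3991, 5354 and 3706 per M in knockouts, against 2983, 2664, 2371 and 3030 in control replicates 1 to 4. The sums did not overlap, and control replicate 3 was the lowest. In bulk tissue more cells of a type and more RNA per cell cannot be told apart.

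Among the compact myelin proteins, Mbp, which joins the inner faces of the membrane, was at 277, 201, 332 and 240 RPKM in knockouts, against 192, 152, 70.2 and 152 RPKM in control replicates 1 to 4. The groups did not overlap, and the log2 difference was 0.70 (SE 0.16, all 0.95, limma adjusted p = 0.673). Mal, a proteolipid that sorts myelin membrane, was at 75.8, 76.6, 89.6 and 67.6 RPKM in knockouts, against 55.4, 46.3, 39.8 and 52.5 RPKM in control replicates 1 to 4. It had the smallest p of the list, with no overlap (0.61, SE 0.12, all 0.67, adjusted p = 0.31).

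Of the proteins at the outer and inner surface of the sheath, Mog was at 42.7, 28.7, 55.1 and 38.5 RPKM in knockouts, against 28.5, 19.6, 5.26 and 24.4 RPKM in control replicates 1 to 4. The lowest knockout and the highest control were nearly level, and the log2 difference was 0.76 (all 1.22). Mag was at 57.2, 46.7, 54.7 and 44.9 RPKM in knockouts, against 35.4, 33.5, 177 and 32.5 RPKM in control replicates 1 to 4. Control replicate 3 decided its direction: the difference was 0.54 without that library and -0.02 with it. Opalin (0.66, all 0.85) and the enzymes of myelin lipids Fa2h (0.75, all 1.26) and Ugt8a (0.63, all 0.51) had no overlap in either case. Nor had Myrf, the transcription factor of myelination (0.65, all 1.02). Ermn (0.51, all 0.33) had none without control replicate 3 and overlapped with it. Cldn11 (0.57, all 0.40), Aspa (0.51, all 0.45), Cnp (0.41, all 0.16), Trf (0.33, all -0.04) and Mobp (0.30, all 0.03) overlapped.

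**Figure D3:**
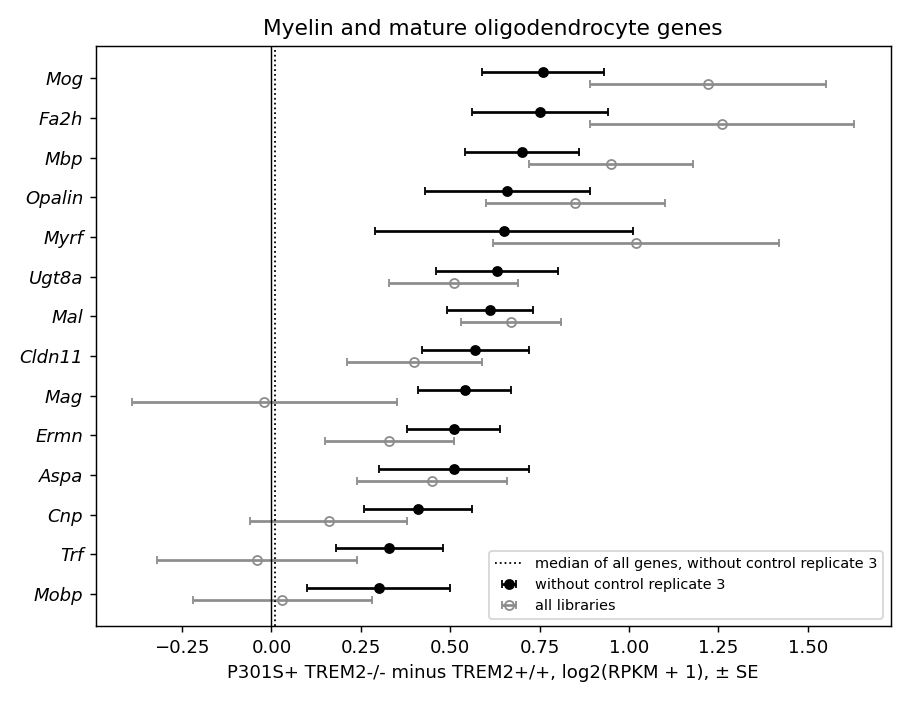
Log2 difference of knockouts from controls with its SE for 14 of the 16 myelin and mature oligodendrocyte genes (horizontal axis, log2(RPKM + 1)), without control replicate 3 (filled) and with all libraries (open). All 14 filled points lie right of the median of all genes at 0.01, and the open points of Mag and Trf lie just below 0.

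Against tau mice that keep Trem2, the myelin list had a median of 0.18, and the sums of those mice, 2868 to 4147 reads per M, overlapped those of the knockouts. Mbp was at 119 to 215 RPKM in those mice and differed by 0.75 (SE 0.15, limma adjusted p = 0.0714), Fa2h by 0.74 and Myrf by 1.19, while Mag differed by -0.31. None of the 16 passed. In that comparison 13 of 11985 genes were called without control replicate 3 (0.108%), 4 of them higher (0.0334%) and 9 lower (0.0751%) in knockouts, and 1 with it (0.00834%). No control enters the log2 differences of that comparison, and control replicate 3 changes only the spread estimated jointly from all 4 genotypes.

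Genes of oligodendrocyte precursors gave a smaller shift. Of 9 tested, 6 were positive with a median of 0.15 (0.10 with control replicate 3), and 3 were higher at an unadjusted p under 0.05, both with and without control replicate 3. Bcas1, which marks newly forming myelinating cells, was at 31.7, 24.6, 30.4 and 34.6 RPKM in knockouts, against 19.9, 17.3, 27.7 and 20.1 RPKM in control replicates 1 to 4. It overlapped only through control replicate 3, and its log2 difference was 0.67 (all 0.50, limma adjusted p = 0.729). The lineage transcription factors Olig2 and Olig1 differed by 0.38 each (all 0.80 and 0.78) with overlap, whereas Pdgfra, the growth factor receptor that defines precursors, differed by -0.09 (all -0.04).

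Striatal marker genes also had higher values in the knockouts. Bundles of myelinated fibres run through the striatum. All 8 tested were positive with a median of 0.77 (0.54 with control replicate 3), none at an unadjusted p under 0.05 in either fit. Their reads summed to 744, 1660, 3477 and 3184 per M in knockouts, against 468, 1591, 1272 and 1929 in control replicates 1 to 4. The sums overlapped and were high in both male knockouts. Penk, the enkephalin precursor, was at 212, 519, 1032 and 1046 RPKM in knockouts, against 125, 479, 117 and 633 RPKM in control replicates 1 to 4. Its log2 difference was 0.89 (all 1.18). Rarb, a retinoic acid receptor, differed by 0.84 (all 0.80) and Rgs9 by 0.82 (all 0.52), both with overlap. The myelin sums of knockout replicates 1 to 4 were 4594, 3991, 5354 and 3706 per M. The part of striatal tissue in the myelin result was not tested.

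Homeostatic microglia genes were mostly higher in the knockouts without passing the test. Of 15 tested, 14 were positive with a median of 0.35 (10 and 0.27 with control replicate 3), and 4 (5 with it) were higher at an unadjusted p under 0.05. P2ry12, the purine receptor by which microglia sense injury, was at 15.6, 16.9, 24.3 and 23.1 RPKM in knockouts, against 15.4, 12, 3.27 and 13.8 RPKM in control replicates 1 to 4. The knockouts lay just above the controls, by 0.56 (SE 0.15, all 0.94, limma adjusted p = 0.673). Gpr34, a lysophospholipid receptor, was at 5.59, 8.05, 5.52 and 5.39 RPKM in knockouts, against 2.99, 4.08, 2.42 and 4.17 RPKM in control replicates 1 to 4 (0.60, all 0.70). Selplg, an adhesion ligand, differed by 0.46 (all 0.50) with overlap. Cx3cr1, the fractalkine receptor, was at 20.3 to 36.8 RPKM in knockouts and 22.3 to 29.5 in the 3 controls, and at 132 in control replicate 3 (0.04, all -0.58). The list summed to 601 to 1034 reads per M in knockouts and 657 to 742 in the 3 controls, which overlap.

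The knockouts differed among themselves in several disease-associated microglia genes. Of 20 genes of this list tested, 16 were positive with a median of 0.31 (14 and 0.47 with control replicate 3). None was higher at an unadjusted p under 0.05 without control replicate 3, and 5 were with it. The metalloprotease inhibitor Timp2 was lower at that p in both fits (-0.42, all -0.88). Cst7, a cysteine protease inhibitor, was at 0.186, 0.397, 2.15 and 9.47 RPKM in knockouts, against 0.684, 0.21, 0.194 and 0 RPKM in control replicates 1 to 4. Knockout replicates 1 and 2, both female, had 1 read each and lay within the controls, and the males had 19 and 63 reads. Tyrobp, the adapter of TREM2, was at 29.7, 22.1, 44.3 and 72.3 RPKM in knockouts, against 31.9, 29.1, 14.5 and 27.7 RPKM in control replicates 1 to 4. Lyz2, the macrophage lysozyme, was at 2.77, 3.71, 7.27 and 11.4 RPKM in knockouts, against 4.21, 2.29, 0.362 and 2.55 RPKM in control replicates 1 to 4. The log2 differences were 1.28 for Cst7 (all 1.12), 0.46 for Tyrobp (all 0.61) and 0.88 for Lyz2 (all 1.11), each with overlap. In these 3 genes the male knockouts were the higher, and replicate 4 the highest. The rest of the list was mixed: both males were above both females in Ctsd, Lpl and Ccl6. In Cd9, Cd63, Cd68 and Ctsz, replicate 4 was the highest knockout but replicate 3 was not above both females. Apoe, the lipid carrier that marks this state, was at 420, 541, 509 and 781 RPKM in knockouts, against 599, 552, 1145 and 518 RPKM in control replicates 1 to 4. It differed by 0.02 (all -0.28) and overlapped. The cathepsin gene Ctsb differed by 0.31 (all 0.65) with overlap, and the tetraspanin gene Cd9 by 0.51 (all 0.94) with no overlap. Clec7a, Itgax, Gpnmb and Lgals3 lay below the filter.

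Over this list, tau mice that keep Trem2 were on balance higher than the knockouts. The median over the disease-associated list was -0.45 for knockouts against these mice. At an unadjusted p under 0.05, 7 of 20 were lower and 2 higher, against 10.4% and 13.2% of all genes. With control replicate 3, 5 were lower and 1 higher, against 4.31% and 5.55% of all genes. Cst7 averaged 3.05 ± 4.37 RPKM in knockouts and 9.72 ± 5.7 in these tau mice, and Tyrobp averaged 42.1 ± 22.1 RPKM in knockouts and 83.5 ± 27.4 in those mice (SD, n = 4 each). Their log2 differences were -1.81 and -1.05 (limma adjusted p = 0.148 and 0.136). Knockout replicates 1 to 3 lay below all P301S+ TREM2+/+ libraries in both genes, and knockout replicate 4 lay among them. Of the homeostatic genes, P2ry12 (0.32), Selplg (0.35) and Gpr34 (0.58) were higher and Tmem119 (-0.51) lower in knockouts than in these mice at an unadjusted p under 0.05. None passed. Over the homeostatic list the median was -0.16.

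The other lists of microglia and immunity held few genes at an unadjusted p under 0.05. Of 14 pan-microglia and macrophage genes, 12 were positive with a median of 0.30 (9 and 0.12 with control replicate 3) and none had an unadjusted p under 0.05 in either fit. Ctss, a lysosomal protease, was at 110, 142, 192 and 263 RPKM in knockouts, against 101, 120, 140 and 122 RPKM in control replicates 1 to 4 (0.65, all 0.48). Of 7 complement genes, 6 were positive with a median of 0.09 (4 and 0.11 with control replicate 3), and 1 was higher at that p, only with it. C4b was at 0.78, 1.6, 1.98 and 5.41 RPKM in knockouts, against 1.05, 1.08, 1.31 and 1.19 RPKM in control replicates 1 to 4, again highest in knockout replicate 4 (0.67, all 0.51). The border macrophage gene Pf4 was the only tested member of its list and differed by 0.28 (all 0.74) with overlap.

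Antigen presentation and interferon genes included 2, 1 in each list, at an unadjusted p under 0.05 without control replicate 3. With it 3 antigen presentation and 2 interferon genes were higher at that p. H2-D1, a class I histocompatibility gene, was at 47.5, 50.3, 57.7 and 62.8 RPKM in knockouts, against 32.9, 36.5, 3.3 and 28.4 RPKM in control replicates 1 to 4. It had the largest positive difference of the 10 genes tested (0.86, all 1.46, limma adjusted p = 0.997), of which 8 were positive with a median of 0.18 (6 and 0.41 with control replicate 3). Class I genes have near-identical copies, so its level is uncertain. Gbp3, an interferon-induced GTPase, was at 1.85, 2.11, 1.87 and 1.45 RPKM in knockouts, against 0.681, 0.907, 0.579 and 0.453 RPKM in control replicates 1 to 4 (0.81, all 0.77, adjusted p = 0.945). Of 11 interferon genes, 9 were positive with a median of 0.45 (8 and 0.27 with control replicate 3). Ifi27 had no overlap (0.45, all 1.1), whereas Ifit1 (0.48, all 0.51), Rsad2 (0.46, all 0.25) and Ifit3 (0.53, all 0.74) overlapped. Of 12 genes of NF-kB and cytokines only 4 were tested, with a median of 0.19 (0.35 with control replicate 3), and 1 was higher at an unadjusted p under 0.05, only with that library. Ccl4, a chemokine of microglia, was at 0.554, 1.19, 2.02 and 3.14 RPKM in knockouts, against 0.204, 1.15, 0 and 0 RPKM in control replicates 1 to 4, which overlap (1.01 in both fits).

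**Figure D4:**
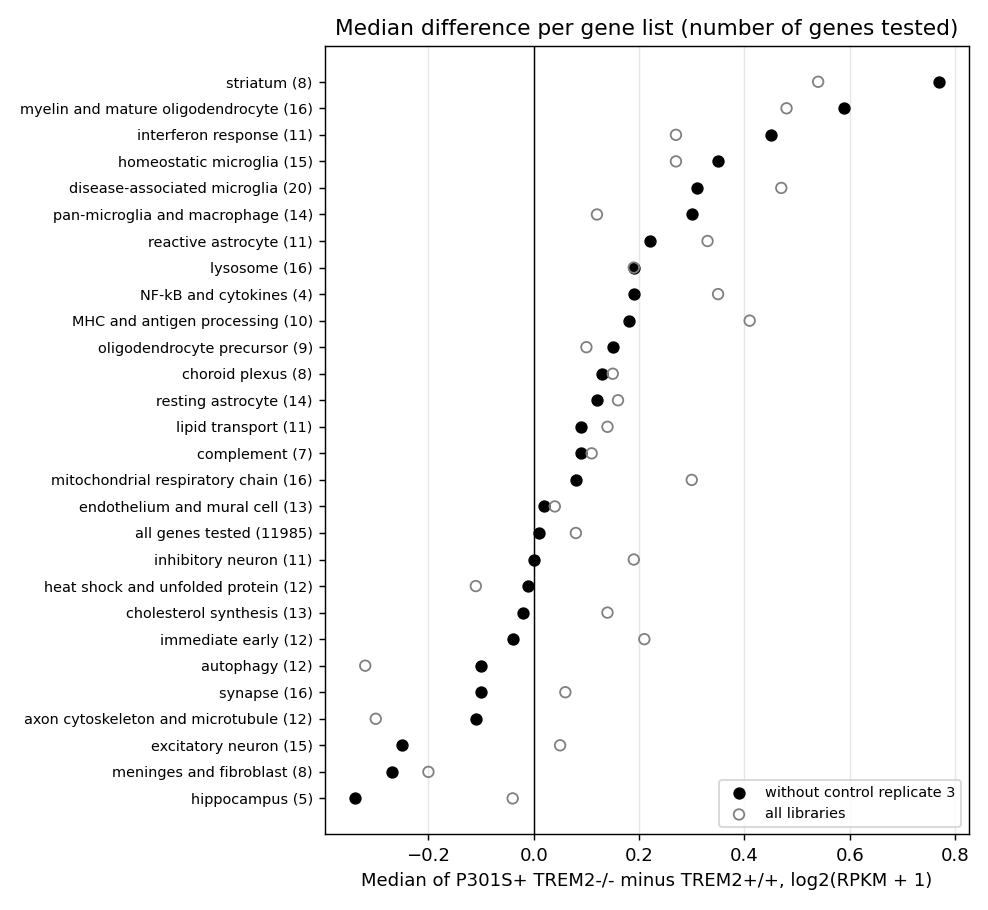
Median log2 difference of knockouts from controls for each gene list with at least 4 tested genes (horizontal axis, log2(RPKM + 1); number of tested genes in brackets), without control replicate 3 (filled) and with all libraries (open). The striatal and myelin lists have the highest filled medians, 0.77 and 0.59, and the excitatory neuron list lies at -0.25 without control replicate 3 and at 0.05 with it.

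Neuronal genes gave medians at or below 0 without control replicate 3. Of 15 excitatory neuron genes, 7 were positive with a median of -0.25 (8 and 0.05 with control replicate 3). At an unadjusted p under 0.05, 1 was higher and 1 lower (1 and 2 with that library). Camk2a, the kinase of postsynaptic plasticity, was at 306, 230, 192 and 260 RPKM in knockouts, against 305, 570, 1241 and 300 RPKM in control replicates 1 to 4. Knockout replicate 1 lay level with control replicates 1 and 4, and the log2 difference was -0.69 (SE 0.2, all -1.05, limma adjusted p = 0.791). Slc17a7, the vesicular glutamate transporter of cortical neurons, was at 185, 107, 91.7 and 129 RPKM in knockouts, against 172, 185, 274 and 136 RPKM in control replicates 1 to 4 (-0.47, all -0.58). Tle4, a marker of deep-layer neurons, was higher instead, at 27.1, 29.8, 33.3 and 32.3 RPKM in knockouts, against 25.4, 25.1, 19 and 24.8 RPKM in control replicates 1 to 4. The groups did not overlap for Tle4 (0.29, all 0.37, adjusted p = 0.929).

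Of 16 synapse genes, 13 were negative with a median of -0.10, but only 7 were negative and the median was 0.06 with control replicate 3. The vesicle proteins Syp (-0.38, all -0.48) and Vamp2 (-0.42, all -1.19) were lower at an unadjusted p under 0.05 in both fits, with overlap, and Vamp2 stood at 1509 RPKM in control replicate 3 against 110 to 226 elsewhere. Inhibitory neuron genes had a median of 0.00 over 11 genes (0.19 with control replicate 3), with no unadjusted p under 0.05 in either fit. Immediate early genes had a median of -0.04 over 12 (0.21), likewise with none, and Npas4, induced by neuronal activity, was at 2.75 to 7.24 RPKM in knockouts and 2.47 to 4.66 in the 3 controls (0.43, all -0.14). Axon cytoskeleton and microtubule genes had 10 of 12 negative with a median of -0.11 (-0.30 with control replicate 3). None had an unadjusted p under 0.05 without that library, and 2 were lower at that p with it, Map1a (-0.31, all -0.74) and Stmn1 (-0.49, all -0.96).

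Over all 11985 genes the median was 0.01 (0.08 with control replicate 3), and the astrocyte, vascular and metabolic lists are given beside it. Resting astrocyte genes had a median of 0.12 over 14 (0.16 with control replicate 3) and reactive astrocyte genes 0.22 over 11 (0.33), with no unadjusted p under 0.05 in either list or fit. Of the resting genes 11 were positive (8 with that library) and of the reactive genes 9 (8). Endothelium and mural cell genes had 0.02 over 13 (0.04), cholesterol synthesis genes -0.02 over 13 (0.14), and respiratory chain genes 0.08 over 16 (0.30), of which 12 were positive in both fits. At an unadjusted p under 0.05, 1 endothelial and 1 respiratory chain gene were higher, both only with control replicate 3. Lysosome genes had 0.19 over 16 with and without that library, with 14 positive (11 with it) and 1 higher at that p (2 with it). Lipid transport genes had 0.09 over 11 (0.14), and Abca1, which exports cholesterol to lipoproteins, differed by 0.52 (all 0.26). Heat shock and unfolded protein genes had -0.01 over 12 (-0.11), and Hspa1b was at 5.66, 6.69, 5.43 and 5.54 RPKM in knockouts, against 8.02, 6.98, 0.34 and 8.93 RPKM in control replicates 1 to 4. The difference was -0.38 (all 0.29), and Hspa1b was thus lower only without control replicate 3.

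Autophagy genes had 10 of 12 negative with a median of -0.10 (4 of 12 positive and -0.32 with control replicate 3). None had an unadjusted p under 0.05 without that library, and 2 were lower at that p with it, Map1lc3a and Becn1. Becn1, a part of the complex that starts autophagosomes, differed by -0.18 (all -0.45). Map1lc3a, which coats autophagosomes, was at 178, 162, 199 and 220 RPKM in knockouts, against 305, 203, 724 and 217 RPKM in control replicates 1 to 4 (-0.33, all -0.74). It was 1 of the 13 genes called against P301S+ TREM2+/+ mice without control replicate 3, at 190 ± 25.2 RPKM in knockouts and 398 ± 47.5 in those mice (SD, n = 4 each), which is -1.07 on the log2 scale (SE 0.15, limma adjusted p = 0.0148). With that library the adjusted p was 0.43.

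Markers of tissue next to the cortex varied between mice. Meninges and fibroblast genes were negative in 8 of 8 with a median of -0.27 (-0.20 with control replicate 3). Their reads summed to 103 to 190 per M in knockouts and 204 to 223 in the 3 controls, with control replicate 3 at 89.6. Choroid plexus genes had a median of 0.13 over 8 (0.15) and their sum was highest in knockout replicate 1, at 1819 per M. Hippocampus genes had -0.34 over 5 (-0.04), and Neurod1 was at 12.8, 13, 9.91 and 9.45 RPKM in knockouts, against 14.2, 18.1, 3.06 and 20 RPKM in control replicates 1 to 4. Its difference of -0.61 without control replicate 3, with no overlap, was -0.04 with that library, and the groups then overlapped. No blood gene was tested, and the 4 globin genes were at 0 in all 8 libraries. Cd4 was the 1 T cell gene tested and differed by 0.54 (all 0.61) with overlap.

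Several genes near Trem2 on chromosome 17 were among those that differed, a region chosen after these values were seen. Within 5 Mb of the start of Trem2, 63 other genes were tested, of which 9 (14.3%) had no overlap between the 4 knockouts and 3 controls and 10 (15.9%) had an unadjusted p under 0.05. Over all genes with a position the shares were 5.5% and 4.9%. From 5 to 20 Mb away they were 6.44% and 7.92% of 202 genes, and beyond 20 Mb on the same chromosome 2.86% and 4.49% of 245 genes. With control replicate 3, 20.6% of the genes within 5 Mb and 9.79% of all genes had an unadjusted p under 0.05.

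Oard1, an enzyme that removes ADP-ribose from proteins, starts 0.06 Mb from Trem2 (chromosome 17, 48410014 to 48417266, plus strand). It was at 18.7, 18.2, 22.3 and 16.3 RPKM in knockouts, against 12.1, 10.8, 6.06 and 8.31 RPKM in control replicates 1 to 4. The groups did not overlap with or without control replicate 3, and the log2 difference was 0.83 (SE 0.16, all 0.98, limma adjusted p = 0.31). Against P301S+ TREM2+/+ mice, at 6.89 to 11.2 RPKM, the knockouts were higher by 0.99 (SE 0.15), which passed without control replicate 3 (adjusted p = 0.0178) but not with it (0.416). Higher with no overlap in either case were also the mitochondrial ribosome genes Mrps10 (0.69, all 0.74) and Mrpl2 (0.42, all 0.57), and Plcl2 (0.25, all 0.27). Lower with no overlap were Lrrc73 (-0.66, all -0.91), Mrps18a (-0.68, all -1.53), the ubiquitin ligase gene Cul7 (-0.33, all -0.49) and the nuclear export gene Xpo5 (-0.24, all -0.46). Gtpbp2 was at 5, 6.21, 8.07 and 4.15 RPKM in knockouts, against 13.4, 14, 0.129 and 10.6 RPKM in control replicates 1 to 4. Control replicate 3 lay below all knockouts, and the difference was -0.87 without it and -0.12 with it. The unadjusted limma p-values of Gtpbp2 were 0.12 and 0.86. Without control replicate 3 the unadjusted p of Plcl2 and Xpo5 was also above 0.05, at 0.059 and 0.15. Mrps18a was at 18.8, 15.4, 13 and 22.3 RPKM in knockouts, against 25.6, 36.2, 322 and 22.4 RPKM in control replicates 1 to 4. Rps18, H2-D1 and Mog lie on the same chromosome, outside the 5 Mb. The sources used here do not say whether reads were counted by strand, and overlapping genes cannot be separated.

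**Figure D5:**
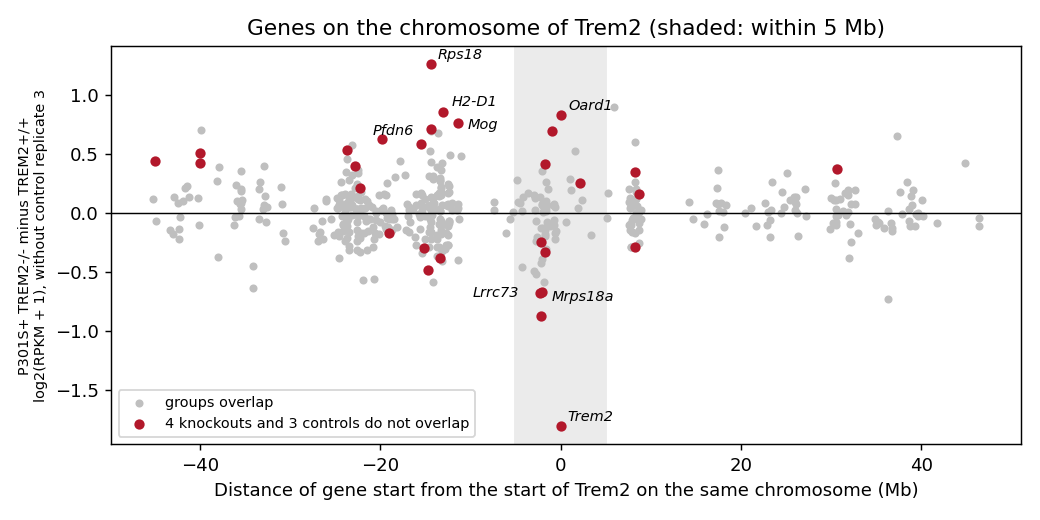
Log2 difference of knockouts from controls without control replicate 3 (vertical axis) for each tested gene within 50 Mb of Trem2, by the distance of its start from that of Trem2 (horizontal axis, Mb). Red points have no overlap between the 4 knockouts and 3 controls, and 9 of the 63 genes other than Trem2 in the shaded 5 Mb on either side are red.

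The difference between knockouts and controls was also compared between the sexes, with 2 mice of each sex and genotype. No gene had a difference between females and males that passed (lowest limma adjusted p = 0.429 with control replicate 3), while 1168 genes (9.75%) had an unadjusted p under 0.05. Without that library 1 female control remained, the lowest adjusted p was 1.0, and 585 genes (4.88%) had an unadjusted p under 0.05. Prnp differed from controls by 1.22 in females and 1.43 in males, and Mal by 0.71 in females and 0.52 in males. The homeostatic microglia list had a median of 0.01 in females and 0.63 in males, and the striatal list -0.50 in females and 1.73 in males. These differences between the sexes were not tested as lists, and the males with high microglial genes were also those with high striatal sums.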

How the data were processed

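RNA was extracted from cortical tissue on RNeasy columns, made into Lexogen QuantSeq 3' libraries and read on a HiSeq4000 sequencer, per the labels' protocols. The submitters' processing notes name the tools STAR, HTSeq, edgeR and limma and the build mm10, without versions or order. The authors deposited 1 table of values per mouse. Their headers name no unit, and the deposited values were taken as RPKM because those of each gene are whole multiples of 1 read: 100% of the 18907 genes above 0 gave whole reads (tolerance 0.01 read). The sum of these reads is the depth given. 1 line per file names no gene, and 2 symbols listed more than once were left out.

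Groups came from the descriptions and sex from its label. limma 3.58.1 (trend) in R 4.3.3 was run on log2(RPKM + 1) over all 16 libraries with 4 genotypes and sex (11 residual degrees of freedom), and again without control replicate 3 (10). Fold changes are on that scale, which understates low genes. P-values were adjusted over the 11985 genes by the Benjamini-Hochberg method, with a threshold of 0.05. The sex difference was a contrast of genotype-by-sex means. The fit was tested on simulated counts for these genes, drawn with the same spread for every gene and without a deviant library. Such counts cannot show how the fit handles control replicate 3. Libraries of a genotype differed beyond sampling noise, with a chi-square per gene of at least 6.87, and each was counted as 1 mouse. Positions are from GENCODE M21 (GRCm38).

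The members and the 30 gene lists were chosen with earlier results of these data known. Genes named are the 10 with the smallest p in each direction in either fit, Trem2, Prnp, Mapt, the 3 members of each list with the smallest p, and further list members where a role needed them. Genes near Trem2 were chosen after their values were seen. Alternatives covered the libraries fitted, the sex term, pseudocount, filter, scaling, array weights, limma-voom on recovered reads and leaving out each mouse. 3 list genes are not reported by name here, though the counts and medians of their lists include them.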

Additional observations from a re-analysis of the deposited data

Results flagged for a closer look

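Among the groups of 4 libraries, 218 were examined over 109 named genes, and in the cases below 1 library lay far from the other 3 of its group. Chance flags about 1 group in 20. Control replicate 3 lay far above the other controls in 17 cases and far below in 6.

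Of microglia, complement and lipid genes, control replicate 3 was high in C1qa (820.0 RPKM), Timp2 (1335 RPKM) and Abca1 (4.64 RPKM) and low in C1qc (10.9 RPKM), Cd53 (0.136 RPKM), Cd9 (2.56 RPKM), Ifi27 (6.53 RPKM) and Srgn (0.611 RPKM). C1qa and C1qc encode subunits of the same complement protein and lay at opposite ends there. Of neuronal genes it was high in Vamp2 (1509 RPKM), Tubb3 (232 RPKM), Map1a (151 RPKM), Stmn1 (28.7 RPKM), Calb2 (286 RPKM), Npas4 (16.9 RPKM) and Fibcd1 (10.9 RPKM), and low in Tle4 (19.0 RPKM). Among the other genes it was high in Mag (177 RPKM), Sqstm1 (226 RPKM), Hspa5 (567 RPKM), Mrps18a (322 RPKM), Gm16894 (13.6 RPKM) and the choroid plexus genes Aqp1 (7.96 RPKM) and Folr1 (5.3 RPKM).

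Among the knockouts, replicate 4 was high in Trem2 (3.75 RPKM) and low in the respiratory chain gene Ndufa1 (983 RPKM). Replicate 1 was high in Aqp1 (1.66 RPKM) and Syp (72.5 RPKM) and low in Zfp598 (15.1 RPKM). Replicate 2 was high in Pcgf3 (2.21 RPKM) and Trim23 (3.31 RPKM), and replicate 3 in Snord49a (1.8 RPKM). Control replicate 2 was high in the interferon gene Rtp4 (3.21 RPKM).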

How the results depend on the processing

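The count of genes called with all libraries, 0, became 4 with limma array weights, which gave control replicate 3 a weight of 0.04 (Gabra3, Mal, Oard1 and Prnp), and 1 with limma-voom on recovered reads (Prnp). It lay between 0 and 1 when each mouse was left out in turn, with 1 only without control replicate 3. Without control replicate 3 the count of 1 became 2 in a fit of the knockout and control libraries alone (Prnp and Rps18), and it lay between 0 and 2 when a further mouse was left out: 0 without control replicate 4, and 2 without control replicate 2 (Prnp and Snord91a). Snord91a had no read in any knockout and passed the filter only through the controls, where its reads were few. With a mouse left out, the numbers of genes with an unadjusted p under 0.05 ranged from 506 to 2563 with all libraries. They ranged from 411 to 787 without control replicate 3. Over the settings that started from all libraries, those with a mouse left out included, Prnp lay between 1.32 and 1.72 (limma adjusted p from 0.000461 to 0.676). The lowest of these, 1.32, is the value without control replicate 3. Over the settings that all lacked control replicate 3, Prnp lay between 1.24 and 1.42 (limma adjusted p from 0.00101 to 0.0707). Mag, at -0.02 with all libraries, was 0.59 with array weights and from -0.32 (without control replicate 2) to 0.54 (without control replicate 3) with a mouse left out, and positive also without knockout replicate 2 (0.10). Beyond these, 461 of 470 values of 30 named genes with all libraries, and 467 of 470 without control replicate 3, kept their direction and their side of the threshold, and 447 and 448 of 462 list medians moved by less than the spread between mice, while 15 and 14 moved by more. The causes were not tested. Depth limits the low genes most: Trem2 rests on 5 to 29 reads per knockout, and intervals from reads cover counting error only. No paired analysis was possible because replicate numbers follow the order of the accessions and pair no mice.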
